A study of Mus musculus with 8 samples.

Results

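ATF4 is the transcription factor at the centre of the integrated stress response, and 40 genes listed with it were followed across the libraries of this series. Whether ATF4 regulates each of these genes here was not tested. They are ATF4 itself, related transcription factors, stress effectors, enzymes of serine, asparagine, alanine, one-carbon and proline metabolism, the tRNA exporter XPOT and cytosolic tRNA synthetases. They are a list of gene symbols drawn up with earlier results of these data known, although its rule uses no measured value, and all 40 were found among the 58825 genes of the table. The series compared skin wounds treated with rFGF4 (recombinant FGF4, a growth factor that signals through FGF receptors) with wounds given PBS, the buffer control. By the labels, all 8 RNA samples are from C57BL/6 mice aged 6 to 8 weeks, from tissue within 2 mm of a wound at 6 days. Of these, 4 had PBS-treated wounds and 4 had rFGF4-treated wounds. No transgene or deletion is named, and the labels do not say whether each sample was a separate mouse, so p-values measure the spread between these samples, which may be technical.

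The table went against those labels. Its gene identifiers and symbols were human, so the values below are given for the libraries labelled PBS and rFGF4, matched by column name and number, and nothing is attributed to mouse skin. All 14 keratinocyte markers looked up, KRT5 and KRT14 among them, had a mean of at least 1 FPKM (fragment number divided by gene length and library size). The summed level of that list was 3700 to 4140 FPKM in the PBS libraries and 3530 to 3720 FPKM in the rFGF4 libraries. None of 8 dermal fibroblast markers, 7 skeletal muscle markers or 5 melanocyte markers reached that mean, and CD68 alone did of 8 macrophage markers. CDH5 did of 7 endothelial markers, and S100A8 and S100A9, which keratinocytes also make, did of 7 neutrophil markers in the table. DPT, C1QA, CSF3R, MPO, ELANE and TYR had 0 counts in every library. The libraries held 62044121 to 73680756 deposited counts. Low counts piled up at 4, 8 and 12, taken here as 4 counts a fragment, but not at 16. Counts of 1 and 2 were also common (5170 and 4545 entries), so this reading is not certain. On that reading these totals are larger than the numbers of fragments.

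In the integrated stress response, kinases that sense amino acid shortage, misfolded protein, haem shortage or double-stranded RNA phosphorylate the translation factor eIF2. Translation in general then slows while the ATF4 message is translated more, so ATF4 activity is set largely at the protein level and need not follow its mRNA. ATF4 binds DNA as a dimer with C/EBP or other basic leucine zipper proteins and switches on amino acid synthesis, amino acid import and tRNA charging. Under long stress it also raises DDIT3 (CHOP), which favours cell death, and PPP1R15A (GADD34), which reverses the phosphorylation of eIF2.

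Most of the genes did not pass the test, and the few that did went in different directions. Of the 40 members, 37 had a mean of at least 1 FPKM over the 8 libraries and were tested with edgeR across 11536 genes. PRODH, DDIT3 and DDIT4 fell and STC2 rose, while 33 did not pass the threshold (adjusted p under 0.05). These 4 are 10.8% of the tested members, against 10.0% of all tested genes past the threshold. The 3 lower members are 8.11%, against 4.54% of all tested genes, and the 1 higher member is 2.7%, against 5.49%. The median log2 fold change (rFGF4 over PBS) was 0.01 over the tested members and 0.00 over all tested genes. The median size of the change, regardless of sign, was 0.14 and 0.15 on the log2 scale. In bulk RNA a lower level from fewer cells of a type and one from less RNA per cell cannot be told apart.

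**Figure D1:**
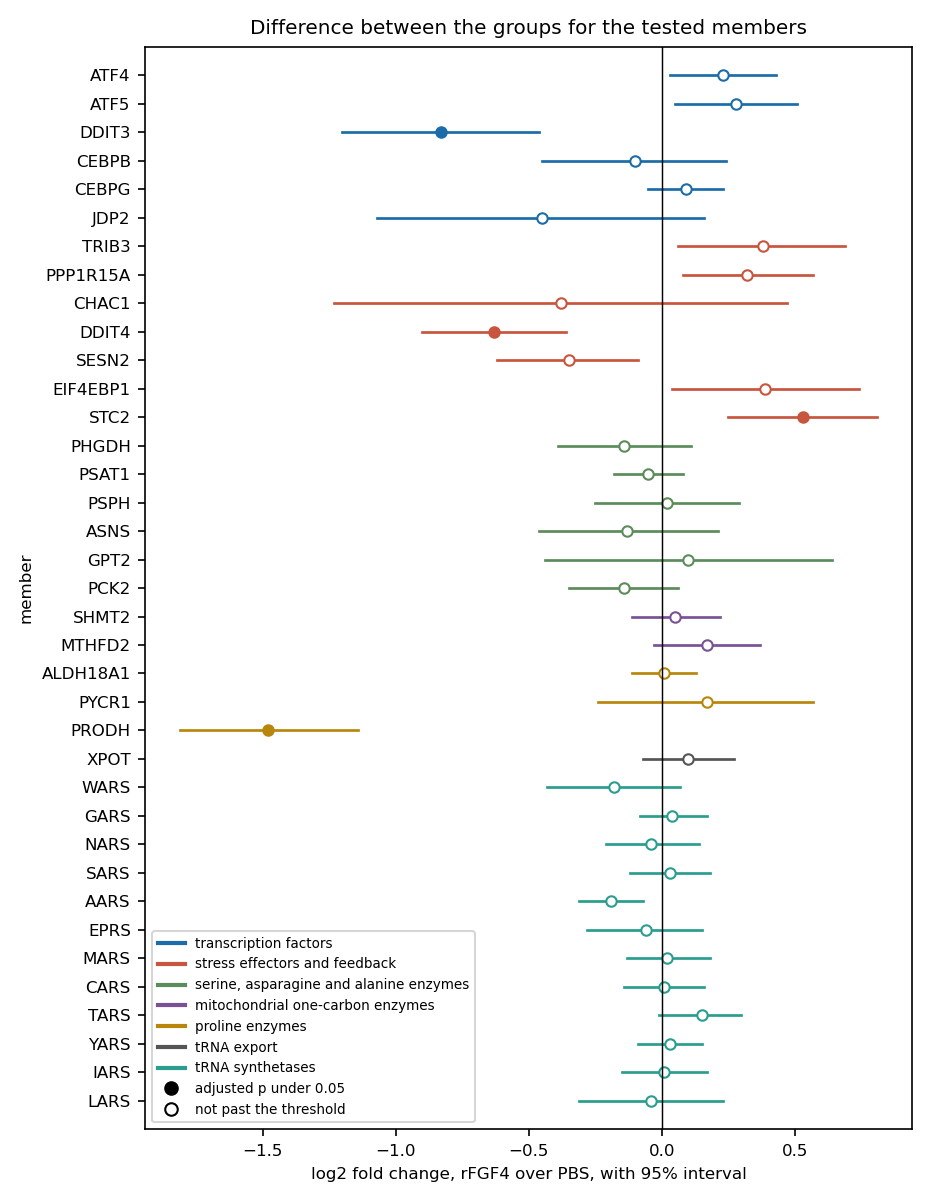
Log2 fold change of each tested member (x axis, rFGF4 over PBS, from edgeR, 4 libraries a group) with its 95% interval as a line, grouped by role on the y axis. Filled points passed the adjusted p threshold of 0.05: PRODH (-1.48), DDIT3 (-0.83) and DDIT4 (-0.63) lie to the left of 0 and STC2 (0.53) to the right, and the tRNA synthetases lie close to 0.

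The largest difference was in PRODH, the mitochondrial proline dehydrogenase that starts the breakdown of proline. It lies on chromosome 22 from 18912777 to 18936553 on the minus strand (coordinates here are those of the table, and the sources used here name no build for it). PRODH stood at 2.37, 2.27, 1.71 and 2.09 FPKM in PBS replicates 1 to 4 and at 0.750, 0.618, 0.764 and 0.835 FPKM in rFGF4 replicates 1 to 4. Every rFGF4 library was below every PBS library. The log2 fold change was -1.48 (SE 0.15, edgeR adjusted p = 0.000987), a level 2.78-fold lower, and it ranked 47 by size among all 11536 tested genes. This rank holds only among genes with a mean of at least 1 FPKM over the 8 libraries. PRODH was below 1 FPKM in every rFGF4 library (mean 0.742 FPKM) and reached that mean through the PBS libraries (mean 2.11 FPKM). The call also held with the filter at 0.1 FPKM and with no filter on low values. PRODH overlaps DGCR6 on the other strand by 1462 bases, and whether counting used the strand is not known. DGCR6 had 341 to 476 counts in the PBS libraries and 346 to 507 in the rFGF4 libraries, so its ranges overlapped while those of PRODH did not.

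The enzymes that build proline did not pass. ALDH18A1, which makes the first committed intermediate of proline from glutamate, stood at 27.5 ± 0.932 FPKM in the PBS libraries and 27.3 ± 1.22 FPKM in the rFGF4 libraries (mean ± SD, n = 4). Its log2 fold change of 0.01 had a 95% interval of -0.11 to 0.13, although its sign changed with limma on FPKM in place of edgeR on scaled counts. PYCR1, which carries out the last step, stood at 12.8 ± 2.47 and 14.0 ± 2.91 FPKM (log2 fold change 0.17, 95% interval -0.24 to 0.57). The PYCR1 value was 0.01 without rFGF4 replicate 3, 0.08 without PBS replicate 1 and 0.28 without PBS replicate 3. Within the proline enzymes, then, the breakdown enzyme was the one past the threshold.

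DDIT3, the CHOP transcription factor of the stress response, was the only one of 6 tested transcription factors to pass. It lies on chromosome 12 from 57516588 to 57521737, on the minus strand. Its level was 10.6, 8.06, 8.26 and 7.05 FPKM in PBS replicates 1 to 4 and 5.49, 4.16, 3.88 and 5.18 FPKM in rFGF4 replicates 1 to 4. The groups did not overlap, and DDIT3 fell by 0.83 on the log2 scale (SE 0.16, edgeR adjusted p = 0.0156), to a level 1.78-fold lower. DDIT3 shares 982 bases with MARS and 1028 with MBD6 on the other strand. Neither neighbour passed, with log2 fold changes of 0.02 for MARS and -0.02 for MBD6.

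ATF4 was the second most abundant member per length, after DDIT4, and did not pass. Its level was 143, 129, 144 and 146 FPKM in PBS replicates 1 to 4 and 155, 149, 163 and 181 FPKM in rFGF4 replicates 1 to 4. All 4 rFGF4 libraries were above all 4 PBS libraries, by a log2 fold change of 0.23 (SE 0.09, 95% interval 0.03 to 0.43, edgeR adjusted p = 0.144). ATF5, a relative of ATF4 that is translated by the same mechanism, was at 7.78 ± 0.504 and 9.26 ± 0.877 FPKM (log2 fold change 0.28, adjusted p = 0.127). ATF5 shares 1062 bases with NUP62 on the other strand, which had 4056 to 8483 counts in the PBS libraries and 5778 to 9877 in the rFGF4 libraries. NUP62 had a log2 fold change of 0.24 (edgeR adjusted p = 0.662), near that of ATF5. The part of this overlap in the ATF5 value was not tested. Among the tested members 8 had groups that did not overlap, or 21.6%, against 19.2% of all tested genes. They were ATF4, DDIT3, DDIT4, TRIB3, PPP1R15A, SESN2, STC2 and PRODH.

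The remaining tested transcription factors of this list, CEBPG, CEBPB and JDP2, also did not pass. CEBPG, a C/EBP protein that pairs with ATF4 on amino acid response genes, stood at 7.91 ± 0.447 and 8.28 ± 0.373 FPKM (log2 fold change 0.09, 95% interval -0.05 to 0.23). CEBPB, a C/EBP protein of stress and inflammation, stood at 11.6 ± 0.698 and 10.6 ± 2.09 FPKM. In CEBPB, rFGF4 replicates 1 to 3 were at 9.69, 8.88 and 10.0 FPKM, below every PBS library, and replicate 4 at 13.6 FPKM was above every PBS library. Its log2 fold change was -0.10, and -0.28 without that library. JDP2, an AP-1 family repressor, had the highest coefficient of variation of the tested members in the PBS group (34.1%, 2.06 to 5.02 FPKM) and a log2 fold change of -0.45 (adjusted p = 0.347), or -0.29 without PBS replicate 1. NUPR1, a small stress-induced chromatin protein, was below the filter on low values, with 34 to 88 counts in the PBS libraries and 8 to 47 in the rFGF4 libraries.

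**Figure D2:**
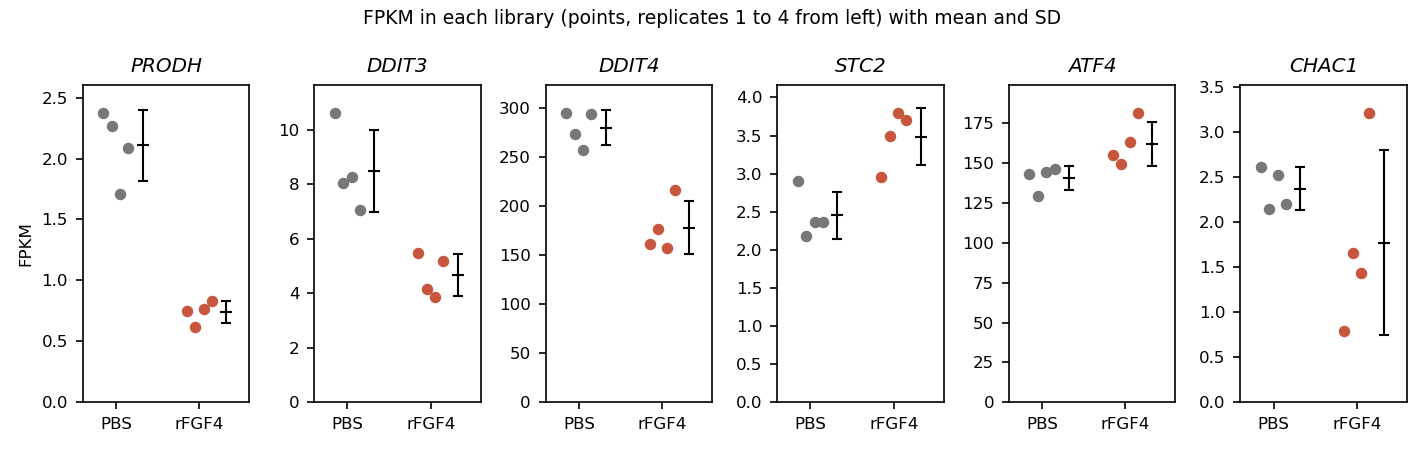
FPKM (y axis, from 0) of 6 members in each library (points, replicates 1 to 4 from left to right), with the mean and SD (n = 4) beside each group. PRODH, DDIT3 and DDIT4 are lower and STC2 higher in all 4 rFGF4 libraries, ATF4 lies slightly higher, and CHAC1 runs from 0.793 to 3.21 FPKM within the rFGF4 group.

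The stress effectors and feedback genes split by direction. Of 7 tested, DDIT4 fell, STC2 rose and 5 did not pass. At an unadjusted edgeR p under 0.05 it was 6 of 7, with 4 higher and 2 lower, and 11 of all 37 tested members, against 25.1% of all tested genes. DDIT4 (REDD1) and SESN2 (sestrin 2) both hold back the growth kinase mTORC1, and EIF4EBP1 (4E-BP1) is a repressor of cap-dependent translation that mTORC1 switches off.

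DDIT4 was the most abundant member per length in both groups. It lies on chromosome 10 from 72273924 to 72276036. Its level was 294, 273, 257 and 293 FPKM in PBS replicates 1 to 4 and 161, 176, 157 and 216 FPKM in rFGF4 replicates 1 to 4. Every rFGF4 library was lower than every PBS library, with replicate 4 the nearest to them. DDIT4 fell by 0.63 on the log2 scale (SE 0.12, edgeR adjusted p = 0.0131), to a level 1.54-fold lower.

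SESN2 was at 4.68, 3.88, 3.86 and 3.79 FPKM in PBS replicates 1 to 4 and at 2.81, 2.93, 3.23 and 3.48 FPKM in rFGF4 replicates 1 to 4. Its groups did not overlap either, but it missed the threshold (log2 fold change -0.35, SE 0.12, edgeR adjusted p = 0.0945). It passed with DESeq2 (adjusted p = 0.0347) and without rFGF4 replicate 4 (-0.44, edgeR adjusted p = 0.0458). EIF4EBP1 was at 59.6, 57.9, 63.5 and 71.8 FPKM in PBS replicates 1 to 4 and at 76.7, 63.5, 84.3 and 99.7 FPKM in rFGF4 replicates 1 to 4. The groups overlapped, and the difference did not pass (log2 fold change 0.39, SE 0.15, edgeR adjusted p = 0.155) except without rFGF4 replicate 2 (0.50, adjusted p = 0.0485). Without rFGF4 replicate 4 it was 0.25 (edgeR adjusted p = 0.26).

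STC2, which encodes the secreted glycoprotein stanniocalcin 2, was the single member past the threshold in the upward direction. It lies on chromosome 5 from 173314713 to 173329503. Its level was 2.90, 2.18, 2.37 and 2.37 FPKM in PBS replicates 1 to 4 and 2.95, 3.5, 3.79 and 3.70 FPKM in rFGF4 replicates 1 to 4. The groups did not overlap, although the highest PBS library, replicate 1, was close to the lowest rFGF4 library, replicate 1. STC2 rose 1.45-fold (log2 fold change 0.53, SE 0.12, edgeR adjusted p = 0.0298). This call held under 8 of the 16 other settings and ended with no filter on low values, with the replicate number as a block, and on leaving out any of PBS replicates 2 to 4 or rFGF4 replicates 2 to 4 (largest adjusted p 0.0937). The calls for PRODH, DDIT3 and DDIT4 held under all 16.

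TRIB3 and PPP1R15A are both feedback genes: TRIB3 is a pseudokinase that restrains ATF4, and PPP1R15A directs a phosphatase to eIF2. TRIB3 was at 14.9, 12.3, 13.6 and 14.0 FPKM in PBS replicates 1 to 4 and at 15.2, 16.6, 15.6 and 22.2 FPKM in rFGF4 replicates 1 to 4. PPP1R15A was at 20.6, 18.8, 16.6 and 18.6 FPKM in the PBS libraries and at 21.5, 21.3, 22.4 and 26.5 FPKM in the rFGF4 libraries, in the same order. In both genes the groups did not overlap and replicate 4 was the highest library. Neither passed, with log2 fold changes of 0.38 for TRIB3 (SE 0.14, edgeR adjusted p = 0.134) and 0.32 for PPP1R15A (SE 0.11, adjusted p = 0.0961). Over the 16 other settings the adjusted p ran from 0.0795 to 0.295 for TRIB3 and from 0.0504 to 0.207 for PPP1R15A.

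CHAC1, a glutathione-degrading enzyme, had the highest coefficient of variation of the tested members in the rFGF4 group, 57.8% against 9.77% in the PBS group. It was at 2.62, 2.15, 2.53 and 2.20 FPKM in PBS replicates 1 to 4 and at 0.793, 1.66, 1.44 and 3.21 FPKM in rFGF4 replicates 1 to 4. Replicates 1 to 3 lay below every PBS library and replicate 4 above every PBS library. The log2 fold change was -0.38 (SE 0.37, edgeR adjusted p = 0.592), -0.86 without rFGF4 replicate 4 (adjusted p = 0.0658) and -0.13 without rFGF4 replicate 1. VLDLR, a lipoprotein receptor that ATF4 can induce, was below the filter at 0.176 ± 0.0177 and 0.137 ± 0.0261 FPKM.

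**Figure D3:**
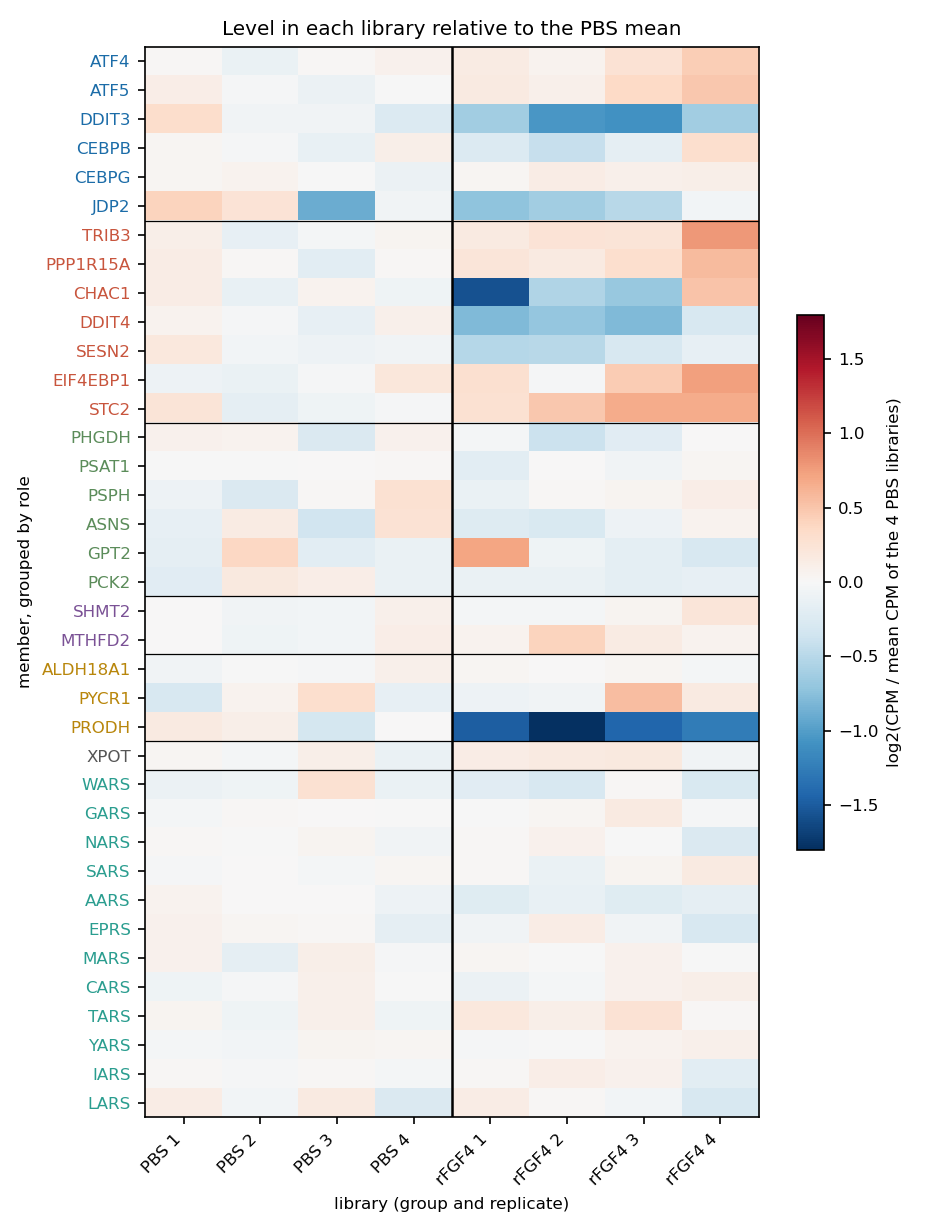
Level of the 37 tested members (rows, by role) in each of the 8 libraries (columns) as log2 of the library-scaled count (CPM) over the mean of the 4 PBS libraries. PRODH, DDIT3 and DDIT4 are blue in all 4 rFGF4 libraries, STC2 is red in them, the tRNA synthetases stay pale, and rFGF4 replicate 4 differs from replicates 1 to 3 in CHAC1 and CEBPB.

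The library rFGF4 replicate 4 stood apart for many members. Of the 37, it was the highest library of its group in 20 and the lowest in 10. It was the highest or the lowest in 81.1% of the members and in 69.8% of all tested genes. This moved with gene length, taken from the ratio of deposited counts to FPKM, with all tested genes put in 5 bins of equal size. In the bin of the shortest genes the median deviation of this library from its group's mean was 0.14 on the log2 scale, and in the bin of the longest it was -0.15.

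The 5 members in the bin of the shortest genes (DDIT3, DDIT4, CHAC1, CEBPB and EIF4EBP1) were 0.20 to 0.97 above the group mean in that library. Of the 5 members in the bin of the longest, LARS was at -0.24, while YARS, CARS, PHGDH and PRODH were at 0.06 to 0.22. The part of gene length in these results was not tested. Without this library, 4 members were past the threshold: PRODH, DDIT3 and DDIT4 as before and SESN2, all lower, and STC2 was not (log2 fold change 0.48, edgeR adjusted p = 0.0581). The log2 fold changes of ATF4 and TRIB3, which did not pass, were then 0.15 and 0.21.

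**Figure D4:**
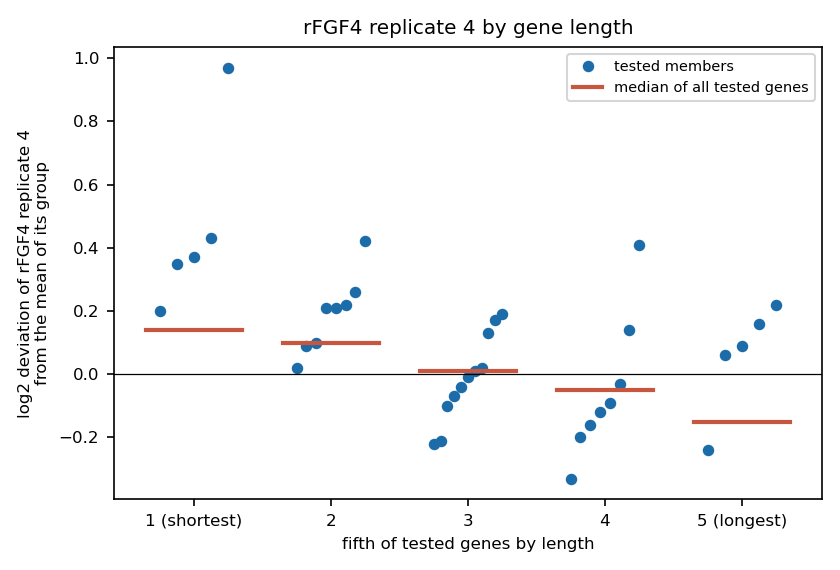
Log2 deviation of rFGF4 replicate 4 from the mean of the 4 rFGF4 libraries (y axis) for the 37 tested members (points), by bin of gene length from shortest to longest (x axis, 5 bins of all tested genes). Bars are the median of all tested genes in a bin, falling from 0.14 to -0.15, and the highest point, at 0.97, is CHAC1.

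The amino acid synthesis enzymes showed little difference between the groups. PHGDH, PSAT1 and PSPH are the 3 successive enzymes of serine synthesis from a glycolytic intermediate. PSAT1 was at 116 ± 1.59 and 110 ± 7.01 FPKM, PHGDH at 15.1 ± 1.48 and 13.4 ± 1.38 FPKM, and PSPH at 6.17 ± 0.924 and 6.16 ± 0.319 FPKM, in the PBS and rFGF4 libraries. PSAT1 was thus the most abundant of the 3 per length in both groups. Their log2 fold changes were -0.05, -0.14 and 0.02, and that of PHGDH was -0.22 without PBS replicate 3 and -0.07 without rFGF4 replicate 2.

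ASNS, asparagine synthetase and a classical ATF4 target, was at 3.58, 4.36, 3.17 and 4.64 FPKM in PBS replicates 1 to 4 and at 3.33, 3.32, 3.61 and 3.92 FPKM in rFGF4 replicates 1 to 4. The groups overlapped (log2 fold change -0.13, 95% interval -0.46 to 0.21), and leaving out 1 library gave values from -0.22 without PBS replicate 3 to -0.03 without PBS replicate 4. GPT2, the mitochondrial alanine transaminase, was at 2.99, 4.28, 2.95 and 3.01 FPKM in the PBS libraries and at 5.39, 3.20, 2.87 and 2.56 FPKM in the rFGF4 libraries. In GPT2, 1 library in each group stood well above the other 3, and the sign of its log2 fold change (0.10, 95% interval -0.44 to 0.64) turned without rFGF4 replicate 1 (-0.17). PCK2, the mitochondrial PEP carboxykinase, was at 9.81 ± 1.25 and 8.74 ± 0.380 FPKM (log2 fold change -0.14, or -0.08 without PBS replicate 2). None of these 6 enzymes passed with edgeR, DESeq2 or limma, and 0 of 6 had an unadjusted edgeR p under 0.05.

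Mitochondrial one-carbon enzymes take the carbon unit from serine to formate. The members of this kind that were tested, SHMT2 and MTHFD2, likewise did not pass with edgeR, DESeq2 or limma. SHMT2 was at 37.0 ± 1.56 and 37.6 ± 2.12 FPKM (log2 fold change 0.05, 95% interval -0.11 to 0.22). MTHFD2 was at 16.6, 15.4, 16 and 17.3 FPKM in PBS replicates 1 to 4 and at 16.9, 21.8, 17.5 and 16.2 FPKM in rFGF4 replicates 1 to 4, with replicate 2 alone above the PBS range (log2 fold change 0.17, 95% interval -0.03 to 0.37, and 0.09 without that library). At an unadjusted edgeR p under 0.05 it was 0 of these 2. ALDH1L2, which oxidises the carbon unit to carbon dioxide, was barely detected. It had 18, 19, 0 and 12 counts in PBS replicates 1 to 4 and 0, 0, 0 and 10 in rFGF4 replicates 1 to 4. On the reading of 4 counts a fragment, which is not certain, a count of 0 allows up to 12 counts here, taken as 3 fragments. No fold is given.

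The 12 tRNA synthetases, which load amino acids onto tRNAs, lay close to the same level in both groups. In the PBS libraries they ranged from 9.01 FPKM (CARS, for cysteine) to 57.7 FPKM (IARS, for isoleucine). Their log2 fold changes ran from -0.19 to 0.15 with a median of 0.01, 7 above and 5 below 0, and their 95% intervals together spanned -0.43 to 0.30. None passed with edgeR or limma. AARS, the alanine enzyme, had an unadjusted edgeR p under 0.05 and passed with DESeq2.

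AARS was at 56.1, 53.2, 54.4 and 49.2 FPKM in PBS replicates 1 to 4 and at 45.3, 49.3, 44.4 and 45 FPKM in rFGF4 replicates 1 to 4. PBS replicate 4 and rFGF4 replicate 2 met at the edge of the groups, and the log2 fold change was -0.19 (SE 0.05, edgeR adjusted p = 0.0609; DESeq2 adjusted p = 0.0132). TARS, the threonine enzyme, had the most positive value (0.15, adjusted p = 0.237), at 45.9 ± 3.39 and 49.9 ± 4.04 FPKM. WARS, the tryptophan enzyme, was at 19.2 ± 2.88 and 16.6 ± 1.71 FPKM (log2 fold change -0.18), with PBS replicate 3 at 23.5 FPKM above the other PBS libraries at 17.3 to 18.0 FPKM. Without that library the value of WARS was -0.08.

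The remaining synthetases differed by less than 0.10 on the log2 scale. SARS, the serine enzyme, had the lowest coefficient of variation of the tested members in the PBS libraries (0.976%), at 39.9 ± 0.390 FPKM, and was at 40.1 ± 1.99 FPKM in the rFGF4 libraries. YARS, the tyrosine enzyme, had the lowest in the rFGF4 libraries (1.37%), at 14.1 ± 0.193 FPKM, and was at 14.0 ± 0.520 FPKM in the PBS libraries. GARS, NARS, EPRS, MARS, CARS, IARS and LARS had log2 fold changes of 0.04, -0.04, -0.06, 0.02, 0.01, 0.01 and -0.04. Those of NARS, EPRS, MARS, CARS, SARS, IARS and LARS changed sign when 1 library was left out. XPOT, which carries mature tRNAs out of the nucleus, was at 22.4 ± 1.75 and 23.6 ± 2.29 FPKM (log2 fold change 0.10, 95% interval -0.07 to 0.27, and 0.06 without PBS replicate 4).

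Across all roles, 24 of the 33 members that did not pass had a 95% interval within 0.5 on the log2 scale on either side, or 1.41-fold. The order of the members by FPKM hardly differed between the groups. DDIT4, ATF4, PSAT1, EIF4EBP1 and IARS held the first 5 places in both, and CHAC1 and PRODH the last 2 among the tested members. In the PBS libraries NARS (46.0 ± 2.20 FPKM), TARS and GARS (43.5 ± 0.932 FPKM) lay within their spread of each other, as did WARS, PPP1R15A (18.7 ± 1.63 FPKM) and MARS (18.7 ± 1.74 FPKM).

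Other genes of the pathway were taken from 8 lists with 116 names, of which 115 matched the table and 94 were tested. Of these, 5 rose and 11 fell (17.0% past the threshold, beside the 10.0% of all tested genes), and 78 did not pass, with a median log2 fold change of 0.02. The share that fell was 11.7%, beside 4.54%, and the share that rose was 5.32%, beside 5.49%. The lists were chosen with earlier results of these data known, so these shares are not independent evidence about the pathway. The count past the threshold was 7 to 13 when 1 library was left out and 8 with no filter on low values.

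Among the 13 genes that control eIF2, EIF2AK3 alone passed with edgeR (7.69%, beside 10.0% of all tested genes), and 3 did with DESeq2. EIF2AK3 (PERK), the kinase that senses misfolded protein in the endoplasmic reticulum, fell from 3.71 ± 0.429 to 2.68 ± 0.243 FPKM (log2 fold change -0.44, SE 0.10, edgeR adjusted p = 0.0284). With DESeq2, EIF2S1, the subunit of eIF2 that is phosphorylated, and EIF2B2, a subunit of its exchange factor, were also past the threshold and higher (log2 fold changes 0.18 and 0.34, DESeq2 adjusted p = 0.00876 and 0.0477). The other 3 kinases did not pass with either tool: EIF2AK1 (HRI, for haem shortage) had 0.06, EIF2AK2 (PKR, for double-stranded RNA) -0.09 and EIF2AK4 (GCN2, for amino acid shortage) 0.04. The EIF2AK3 call ended with no filter and on leaving out any of PBS replicates 1 to 3 or rFGF4 replicates 1 to 3. In the other arms of the unfolded protein response, 0 of 13 passed with edgeR, DESeq2 or limma, beside 10.0% of all tested genes with edgeR. At an unadjusted edgeR p under 0.05 it was 1 of 13, beside 25.1% of all tested genes. HSPA5 (BiP), the main chaperone of that compartment, had a log2 fold change of 0.06, and XBP1 had -0.03.

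Amino acid transporters were lower where they passed, in 4 of 10 (40%, beside 4.54% of all tested genes past the threshold and lower). SLC7A5 and SLC3A2 form the LAT1 transporter of large neutral amino acids. SLC7A5 was at 664, 643, 666 and 657 FPKM in PBS replicates 1 to 4 and at 569, 539, 568 and 577 FPKM in rFGF4 replicates 1 to 4. SLC3A2 was at 133, 138, 125 and 135 FPKM and at 110, 117, 106 and 109 FPKM, in the same order. Neither gene's groups overlapped, and both fell by a small amount, by 0.20 for SLC7A5 (SE 0.05, adjusted p = 0.0477) and by 0.24 for SLC3A2 (SE 0.05, adjusted p = 0.026) on the log2 scale.

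SLC6A9, a glycine transporter, fell by 0.54 (SE 0.09, adjusted p = 0.0083) and SLC1A4, which carries alanine, serine and cysteine, by 0.21 (SE 0.05, adjusted p = 0.0377). SLC7A11, the cystine importer, did not pass (-0.19, adjusted p = 0.559). Of these calls, that for SLC6A9 held under all 16 other settings, SLC3A2 under 10, SLC7A5 under 5 and SLC1A4 under 4. The SLC7A5 call ended without any 1 library except rFGF4 replicate 4, the SLC1A4 call without any 1 library, and the SLC3A2 call without any of PBS replicates 1, 2 and 4 and rFGF4 replicates 1 and 3.

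Of 9 tested genes among the other ATF4 targets and partners, 4 fell with edgeR and 5 with DESeq2, which added NFE2L1 (-0.21, DESeq2 adjusted p = 0.0331). The share that fell with edgeR was 44.4%, beside 4.54% of all tested genes. CTH, which makes cysteine by the transsulfuration route, fell from 8.68 ± 0.733 to 5.62 ± 0.364 FPKM (log2 fold change -0.60, SE 0.09, edgeR adjusted p = 0.00557). SESN3, a sestrin like SESN2, fell from 1.99 ± 0.203 to 1.03 ± 0.187 FPKM (-0.93, SE 0.13). TXNIP, which binds thioredoxin and curbs glucose uptake, fell by 0.80 (SE 0.10) and CEBPA, a C/EBP factor of differentiation, by 1.04 (SE 0.19). All 4 calls held under the 16 other settings. ATF3, a stress-induced repressor close to ATF4, was below the filter. It was at 0.923, 0.756, 0.828 and 0.671 FPKM in PBS replicates 1 to 4 and at 0.358, 0.379, 0.379 and 0.356 FPKM in rFGF4 replicates 1 to 4. These groups did not overlap, and with the filter at a mean of 0.1 FPKM the log2 fold change was -1.07 (SE 0.14, edgeR adjusted p = 0.00368).

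Among the remaining enzymes, 2 of 7 other one-carbon enzymes passed (28.6%, beside 10.0% of all tested genes). SHMT1, the cytosolic counterpart of SHMT2, fell by 0.33 (SE 0.06, edgeR adjusted p = 0.0145), and MTHFD1L, the mitochondrial formate-releasing enzyme, rose by 0.26 (SE 0.07, edgeR adjusted p = 0.0479). The SHMT1 call held under all 16 other settings, and the MTHFD1L call under 2, ending whichever library was left out. In the other amino acid enzymes, GLUL (glutamine synthetase) passed of 14 with edgeR (7.14%, beside 10.0% of all tested genes). Its log2 fold change was -0.37 (SE 0.09, edgeR adjusted p = 0.0308). The GLUL call ended on leaving out any of PBS replicates 2 to 4 or rFGF4 replicates 1, 3 and 4.

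Of the other cytosolic synthetases and their scaffold proteins, 3 of 11 rose (27.3%, beside 5.49% of all tested genes past the threshold and higher). FARSA and FARSB encode the 2 subunits of the phenylalanine enzyme, and VARS encodes the valine enzyme. FARSA was at 28.6 ± 3.24 and 38.3 ± 2.51 FPKM (log2 fold change 0.45, SE 0.10, adjusted p = 0.0253). FARSB had 0.27 (SE 0.06, adjusted p = 0.0315) and VARS 0.25 (SE 0.06, adjusted p = 0.0423). The FARSA call held under 10 of 16 other settings, FARSB under 8 and VARS under 5. All 3 ended on leaving out any of PBS replicates 2 and 4 and rFGF4 replicates 1, 3 and 4, FARSB and VARS also without PBS replicate 1, and VARS without rFGF4 replicate 2.

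Of 17 mitochondrial synthetases MARS2, for methionine, passed (5.88%, beside 10.0% of all tested genes). It was at 3.62, 4.03, 4.11 and 3.42 FPKM in PBS replicates 1 to 4 and at 6.61, 6.06, 6.56 and 6.09 FPKM in rFGF4 replicates 1 to 4. The groups were well apart (log2 fold change 0.76, SE 0.09, edgeR adjusted p = 0.00153), and the call held under all 16 other settings. Its cytosolic counterpart MARS, at 18.7 ± 1.74 and 18.6 ± 0.723 FPKM, had a log2 fold change of 0.02 (95% interval -0.13 to 0.18).

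**Figure D5:**
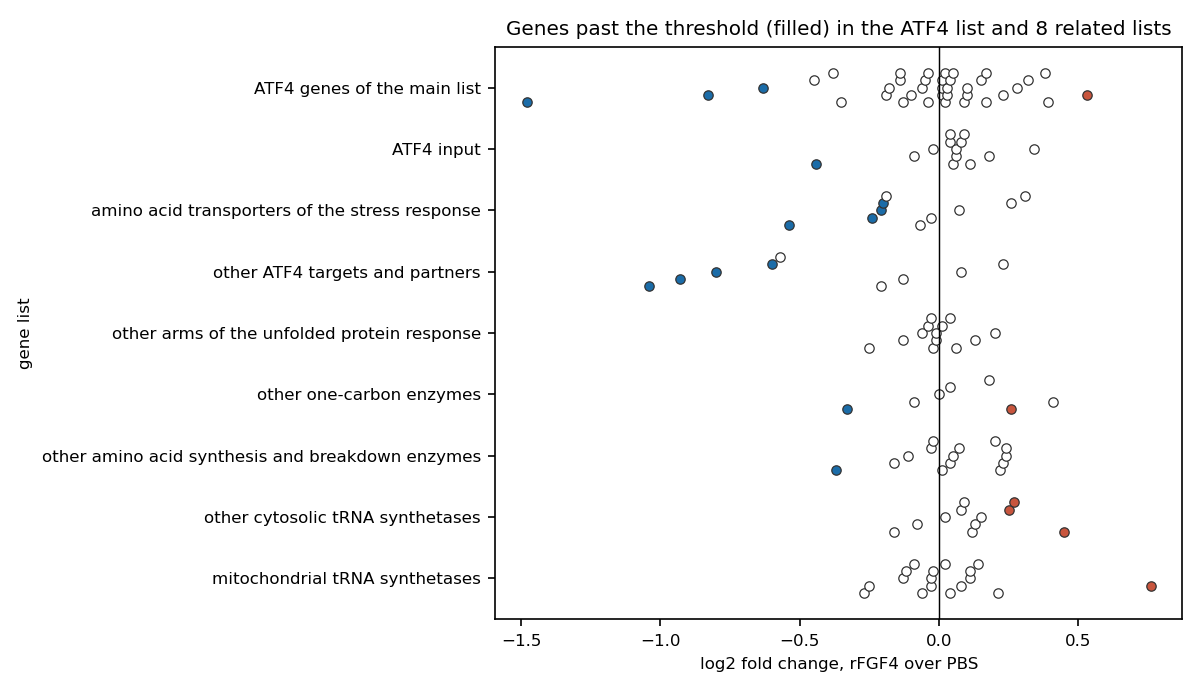
Log2 fold change (x axis, rFGF4 over PBS) of each tested gene in the list of ATF4 genes and in 8 related lists (y axis, height within a row only separates points). Filled points passed the adjusted p threshold of 0.05, blue for lower and red for higher. In all, 4 of 10 amino acid transporters and 4 of 9 other targets and partners are filled blue, beside 4.54% of all tested genes. Of the other unfolded protein response arms, 0 of 13 genes are filled, beside 10.0% of all tested genes.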

How the data were processed

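RNA-seq had been run on 8 samples, 4 per group. The submitters' processing notes name HISAT2 2.0 and StringTie 1.3.0 without a role; no source used here names a build or annotation. Per the file headers, the authors deposited FPKM (0.0001 in place of 0) and counts for each library. The deposited counts are whole numbers but were taken as estimated counts rounded by the authors: 9781 entries equal 4, against 3485 at 3 and 1977 at 5. The counts were tested as deposited with edgeR 4.0.16 in R 4.3.3 (TMM scaling, glmQLFit and glmQLFTest, two-sided, Benjamini-Hochberg over all tested genes, threshold 0.05), on the genes whose FPKM averaged 1 or more. SEs follow from the test statistic, and 95% intervals use its degrees of freedom. Of 58825 genes, 521 (Y chromosome, XIST, TSIX) were left out because the values are human. The script was tested on simulated data. The 40 members and the 8 lists were chosen with earlier results of these data known. The text names every member, each gene of the lists past the threshold, the eIF2 kinases and ATF3; EIF2S1, EIF2B2, NFE2L1, HSPA5, XBP1, SLC7A11, NUP62, MBD6 and DGCR6 were named after their values were seen. Alternatives were DESeq2 1.42.0, limma 3.58.1 on log2(FPKM + 1) or log2(FPKM + 0.1), median-of-ratios scaling, other filters, a replicate block and leaving out each library. The reference sequences at hand were of the mouse, so no sequences are given.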

Additional observations from a re-analysis of the deposited data

Results flagged for a closer look

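In 10 of 120 groups of 4 libraries (60 genes, 2 groups each), 1 library lay far from the others by the gap between it and its nearest neighbour relative to the whole range. Chance flags about 1 in 20 groups. Among the members, ATF4 in PBS replicate 2 (129 FPKM) lay below the other PBS libraries at 143 to 146 FPKM, and PHGDH in PBS replicate 3 (12.9 FPKM) below 15.7 to 16.2 FPKM. SESN2 in PBS replicate 1 (4.68 FPKM) lay above 3.79 to 3.88 FPKM, GPT2 in PBS replicate 2 (4.28 FPKM) above 2.95 to 3.01 FPKM, and WARS in PBS replicate 3 (23.5 FPKM) above 17.3 to 18.0 FPKM. In the rFGF4 group, CEBPG in replicate 2 (8.83 FPKM) lay above 8.05 to 8.17 FPKM and YARS in replicate 1 (13.8 FPKM) below the others at 14.2 FPKM. ALDH1L2 was listed at 0.0112 FPKM in rFGF4 replicate 4 and at 0 in the other 3. In the related lists, TXNIP in PBS replicate 2 (5.32 FPKM) lay above 4.75 to 4.81 FPKM and SHMT1 in PBS replicate 4 (10.9 FPKM) above 10.2 FPKM.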

How the results depend on the processing

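The count of members past the threshold was 3 to 6 over all 16 alternatives, and PRODH, DDIT3 and DDIT4 were lower and past it in each. With DESeq2, 5 members were lower, SESN2 and AARS being added, 9 genes of the related lists were higher and 1828 of all tested genes passed. No member was higher with no filter on low values (0) or with the replicate block (0), and leaving out 1 library gave 0 to 1. In the related lists, 8 genes passed with no filter, 2 higher and 6 lower. The number higher was 3 with filterByExpr, 3 with limma on log2(FPKM + 1), 2 on log2(FPKM + 0.1) and 3 with the replicate block. Leaving out 1 library gave 7 to 13 in all, 1 to 5 higher and 6 to 10 lower, and 601 to 1166 of all tested genes. The replicate numbers were not taken to pair the samples: same-numbered deviations correlated at 0.12, 0.06, -0.02 and 0.27. Even so, the rFGF4 library that correlated best with PBS replicates 1, 2 and 4 was the same-numbered one. For PBS replicate 3 it was rFGF4 replicate 2. Pairing is thus not settled. With limma on log2(FPKM + 1) and on log2(FPKM + 0.1), log2 fold changes changed sign, without passing, to -0.01 for ALDH18A1, -0.01 for CARS and -0.02 for IARS. Both limma settings used FPKM without TMM scaling. The median log2 fold change of all tested genes was -0.022 and -0.027 in them, against 0.002 with edgeR. Ranges with 1 library left out that crossed 0 were -0.01 to 0.04 for ALDH18A1, -0.02 to 0.05 for CARS, -0.03 to 0.07 for IARS, -0.06 to 0.12 for PSPH, -0.11 to 0.03 for LARS, -0.03 to 0.06 for MARS, -0.17 to 0.25 for GPT2, -0.01 to 0.09 for SHMT2, -0.08 to 0.02 for NARS, -0.02 to 0.08 for SARS, -0.13 to 0.00 for EPRS, -0.04 to 0.12 for EIF2AK4 and 0.00 to 0.10 for EIF2AK1. The cause of these changes was not tested. Some of the settings also used fewer samples or tested more genes. Low counts limit ALDH1L2, NUPR1 and VLDLR.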
